A study of Mus musculus with 7 samples.

Results

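Sialyltransferases are the Golgi enzymes that place sialic acid on the ends of sugar chains. The set described here holds 10 of them, of the ST3, ST6 and ST8 groups: St3gal1, St3gal2, St3gal3, St3gal4, St6gal1, St6galnac4, St6galnac5, St6galnac6, St8sia3 and St8sia4. They were taken by gene symbol from a count table of 23329 symbols, and all 10 were found and passed the low-count filter that left 12480 tested genes. The choice of these 10 out of a family of 20 was made with the IL1B-against-vehicle results of this table in view, and the values by which they were cut were not given in the sources used here. Their values in that contrast are therefore given as a description. No p-value is printed for them, and where one is said to be past the threshold of the fit over all genes, that places it among the genes of the table and supports no statement about it.

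All RNA came from Beta-TC6, a mouse line grown from a pancreatic beta-cell tumour that still secretes insulin, with genotype WT throughout. Cells received vehicle (n = 4 libraries) or IL1B (interleukin-1 beta, an inflammatory cytokine, n = 3). Both groups were grown in DMEM with 15% fetal bovine serum and synchronised with 10 µM forskolin for 1 h, a pulse that raises cAMP and aligns circadian clocks. IL1B dose, exposure time and time of harvest were not given in the sources used here. All data come from 1 tumour line, and whether each replicate was a culture of its own is left unsaid by the labels, so each p-value is read against a library-to-library spread that may be technical. In bulk RNA, fewer cells of a type and less RNA per cell cannot be told apart.

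Sialyltransferases take sialic acid from the donor CMP-sialic acid, which is made in the nucleus and carried into the Golgi. The ST3 and ST6 enzymes cap galactose or N-acetylgalactosamine, each through its own linkage, and the ST8 enzymes add sialic acid to another sialic acid. The products decorate glycoproteins and gangliosides at the cell surface, where they are ligands for selectins and Siglec receptors. The longest of them is polysialic acid, a chain built on the neural cell adhesion molecule NCAM, which islet endocrine cells also make.

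Libraries held 5335607 to 7513934 counts. The 10 genes together took 0.0190% to 0.0200% of them in vehicle and 0.0169% to 0.0171% with IL1B. The 10 were picked with this contrast in view, so nothing is read from the gap between these ranges. The second vehicle library and the second IL1B library stood apart: chi-square per degree of freedom was 2.87 to 4.88 in pairs that held 1 of them and 1.52 to 1.69 in the other pairs of a group. Deviations of vehicle library 2 from its group mean went down with transcript length (Spearman rho -0.549). The rho was 0.219 to 0.302 in the other vehicle libraries and -0.0211 to 0.0189 with IL1B. The part of transcript length in the values below was not tested. The NF-kB inhibitor gene Nfkbia rose 15.4-fold, and Ins2 stood at 21183 CPM in vehicle (CPM are counts scaled to a common library size, with TMM factors that even out library composition). All 8 beta-cell markers were tested, and 3 of them fell (Pdx1, Mafa and Neurod1), where 3.25% of all tested genes fell. Of 8 markers of other islet endocrine cells 3 were tested and 1, Irx2, fell, and the 8 summed to 578 to 638 CPM in vehicle and 535 to 590 with IL1B. Leukocyte markers summed to 3.42 to 4.54 CPM in vehicle and 6.41 to 7.08 with IL1B over 8 genes, of which 1 was tested and none passed the threshold. Most of that gap lay in Cd74, with 0 to 0.557 CPM in vehicle and 1.60 to 3.71 with IL1B. Itgam had 0 in vehicle and 0.166 to 0.337 CPM with IL1B, and the other leukocyte genes, Ptprc among them, overlapped between the groups. Stromal and endothelial markers summed to 4.64 to 8.46 and 5.83 to 7.81 CPM. Of the endothelial genes, Pecam1, below the filter, had 0.529 to 0.790 CPM in vehicle and 1.52 to 2.83 with IL1B, while Cdh5 and Kdr overlapped between the groups. Exocrine and duct markers summed to 18.8 to 23.8 and 20.1 to 21.9, with Cpa1, Prss2 and Amy2a5 at 0 in every library. The part of other cell types in the values below was not tested.

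The genes on which the values turn encode enzymes of like function, and their coding sequences are shown to let a reader see how far apart they are. Over the 105 pairs among the 15 sialyltransferases that were tested, the longest identical run in any pair of coding sequences was 18 bases. St8sia2 and St8sia4, the polysialic acid synthases, were 64.1% identical over 1072 aligned coding bases, the highest of the 105 values, and their longest shared run was 13 bases. St6galnac5 and St6galnac6, enzymes that add sialic acid to N-acetylgalactosamine in gangliosides, were 59.9% identical over 949 bases, with a longest run of 17. For each pair, the most similar stretch of 120 coding bases within a single exon of both genes is shown 5′ to 3′ on the gene's strand, from the transcripts of GENCODE M21 (GRCm38, the assembly also called mm10). Capitals mark bases that are the same in both genes of the pair. The St8sia stretches, in exon 6 of 6 (chr7:73943345-73943464, minus strand) and exon 5 of 5 (chr1:95591845-95591964, minus strand), share 91 of 120 bases.
St8sia2: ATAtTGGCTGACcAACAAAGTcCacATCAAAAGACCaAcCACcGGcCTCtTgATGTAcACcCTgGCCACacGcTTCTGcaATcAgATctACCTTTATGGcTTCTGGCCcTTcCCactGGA
St8sia4: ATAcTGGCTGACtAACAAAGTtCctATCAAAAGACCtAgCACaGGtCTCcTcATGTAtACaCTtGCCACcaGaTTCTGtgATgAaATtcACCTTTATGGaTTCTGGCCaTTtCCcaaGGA
The St6galnac stretches, in exon 3 of 5 (chr3:152846521-152846640, minus strand) and exon 4 of 6 (chr2:32614811-32614930, plus strand), share 81 of 120 bases.
St6galnac5: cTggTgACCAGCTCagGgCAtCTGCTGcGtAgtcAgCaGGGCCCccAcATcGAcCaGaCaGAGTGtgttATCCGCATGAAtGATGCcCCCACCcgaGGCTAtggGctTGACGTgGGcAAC
St6galnac6: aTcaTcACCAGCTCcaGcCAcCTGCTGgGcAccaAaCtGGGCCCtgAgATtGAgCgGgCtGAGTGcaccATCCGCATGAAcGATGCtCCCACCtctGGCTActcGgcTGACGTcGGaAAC
Differences fell every few bases along each pair. The counting of reads that match several genes was not given in the sources used here.

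With IL1B, St8sia4, St6galnac5, St3gal1 and St6galnac6 were lower than in every vehicle library, by 1.60-, 1.51-, 1.28- and 1.24-fold. The largest change in the family lay outside the 10: St8sia2, the other polysialic acid synthase, rose 4.0-fold from a low level. It passed the low-count filter through its IL1B libraries alone. The threshold in edgeR's quasi-likelihood fit to the whole table was a Benjamini-Hochberg adjusted p of 0.05. Past it were 3 of the 10 as lower (St8sia4, St6galnac5 and St6galnac6) and 0 as higher. Over all tested genes 3.25% fell and 7.76% rose (406 and 968 of 12480). With total-count scaling 556 fell and 844 rose, so increases made up 60.3% of calls against 70.5%. At an unadjusted edgeR p under 0.05, 4 of the 10 were lower with IL1B and 0 higher. Over all tested genes 2824 of 12480 were under it in either direction. DESeq2 and limma-voom each called 0 of the 10 higher and 2 lower. Groups did not overlap in 4 of the 10, all lower with IL1B, against 8.83% of all tested genes lower and 12.1% higher without overlap. Since the 10 were picked with this contrast in view, nothing is read from these counts. The median log2 fold change of the 10 was -0.10, against -0.0087 over all tested genes.

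**Figure D1:**
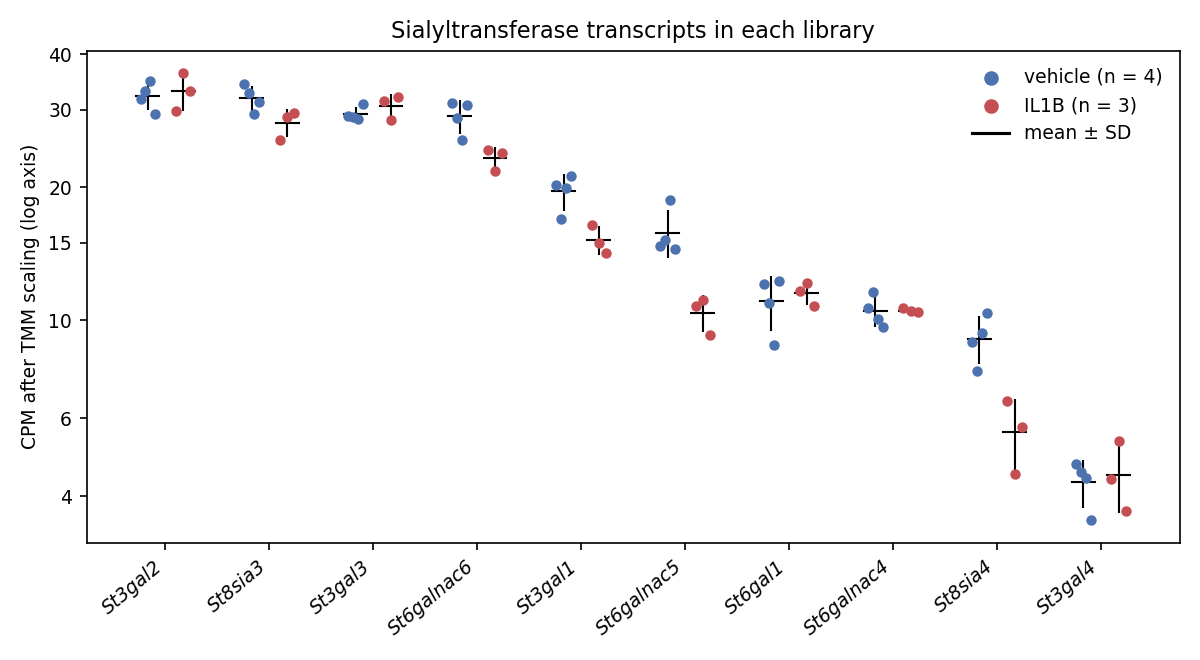
CPM of the 10 sialyltransferase transcripts in each library (log axis), vehicle in blue (n = 4) and IL1B in red (n = 3), with the mean and SD in black. Points of the groups are apart for St6galnac6, St3gal1, St6galnac5 and St8sia4, where every IL1B library is lower, and overlap for the other 6 genes.

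Levels of the 10 transcripts in vehicle cells were set per length, as CPM per kilobase of the longest annotated transcript. St3gal3 (11.5 ± 0.406, SD, n = 4) and St6galnac6 (11.4 ± 0.989) were highest and their libraries overlapped. St3gal2 followed at 7.33 ± 0.517, apart from the genes above and below it. St3gal1 (3.41 ± 0.322), St8sia3 (3.27 ± 0.218), St6galnac5 (2.78 ± 0.346), St6galnac4 (2.62 ± 0.211), St6gal1 (2.45 ± 0.353) and St3gal4 (2.05 ± 0.255) formed a series in which each overlapped the next. St8sia4 was lowest, at 0.907 ± 0.112, apart from St3gal4. By this length St3gal5, a family gene outside the 10 that encodes the synthase of the ganglioside GM3, was above all of them at 18.98 ± 0.966. The order rests on the length used, and St3gal5 was placed by the longest transcript only. Among the 10, with the median length over a gene's transcripts, St3gal2 ranked 1, St8sia3 ranked 2 and St3gal3 ranked 3, while St8sia4 stayed at 10. Within vehicle, the spread of the 10 counts was close to counting noise, with a chi-square per degree of freedom of 0.204 to 1.43.

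The 4 ST3 genes cap galactose. St3gal1, which acts on core 1 O-glycans, the short chains on mucin-type glycoproteins, had 20.3, 16.9, 19.9 and 21.2 CPM in vehicle and 16.5, 15.0 and 14.2 CPM with IL1B. All 3 IL1B libraries lay below the lowest vehicle library, which was the second (log2 fold change -0.36, SE 0.12). It lay just outside the threshold over all 7 libraries, as St6galnac6 lay just inside it, and was past it with upper-quartile or total-count scaling, without vehicle library 2, and when the second libraries of both groups were left out.

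St3gal2, which sialylates O-glycans and gangliosides, had 31.7, 33.0, 34.7 and 29.3 CPM in vehicle and 29.7, 36.2 and 33.1 with IL1B (log2 fold change 0.03, 95% interval -0.17 to 0.23). St3gal3, which acts on N-acetyllactosamine ends, had 28.96, 28.8, 28.6 and 30.8 CPM in vehicle and 31.3, 28.4 and 32.1 with IL1B (0.07, -0.12 to 0.25). St3gal4, an enzyme of sialyl Lewis x synthesis, was the lowest in CPM, at 4.74, 4.54, 4.41 and 3.53 CPM in vehicle and 4.37, 5.32 and 3.71 with IL1B (0.04, -0.41 to 0.49). Values of the groups were interleaved in all 3 genes. St3gal4 had 19 to 36 counts per library, and differences inside its interval were not detectable at this depth.

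Of the 4 ST6 genes, a pair overlapped between the groups and a pair was lower in every IL1B library. St6gal1, which caps the galactose of N-glycans, had 12.1, 10.96, 8.81 and 12.3 CPM in vehicle and 11.7, 12.1 and 10.8 with IL1B (log2 fold change 0.06, 95% interval -0.24 to 0.36). St6galnac4, which adds a further sialic acid to O-glycans already capped by an ST3 enzyme, had 10.7, 11.6, 10.05 and 9.66 CPM in vehicle and 10.6, 10.5 and 10.5 with IL1B (interval -0.28 to 0.28). The IL1B libraries of both genes lay inside the vehicle range.

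St6galnac5, which makes gangliosides of the alpha series and lies on chromosome 3 (152817081 to 152982246), had 14.7, 15.2, 18.7 and 14.5 CPM in vehicle and 10.8, 11.1 and 9.28 with IL1B. The highest IL1B library lay below the lowest vehicle library, and vehicle library 3 stood above the other 3. The mean went from 15.8 ± 1.96 (SD, n = 4) to 10.4 ± 0.987 CPM (n = 3), a log2 fold change of -0.59 (SE 0.14). Without vehicle library 3 its log2 fold change was -0.51.

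St6galnac6, which acts on gangliosides and on Lewis-type chains, had 31.1, 28.7, 25.6 and 30.6 CPM in vehicle and 24.3, 21.8 and 23.95 with IL1B. The groups did not overlap, with vehicle library 3 and IL1B library 1 the closest to each other. Its log2 fold change was -0.31 (SE 0.10). Past the edgeR threshold over all 7 libraries, it was not past it with DESeq2, with limma-voom, without vehicle library 1 or 4, without any 1 of the IL1B libraries, or when the second libraries of both groups were left out. In that last setting 3 members were also past it, with St3gal1 in place of St6galnac6. St6galnac4 and St6galnac6 lie head to tail on the plus strand of chromosome 2, with 10 bases between the annotated end of the first (32599698) and the start of the second (32599709). The groups overlapped for St6galnac4 and not for St6galnac6.

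The 2 ST8 genes of the set differ in product. St8sia3, which adds short sialic acid chains and is best known from brain, had 34.2, 32.7, 29.3 and 31.2 CPM in vehicle and 25.6, 28.9 and 29.5 with IL1B (log2 fold change -0.19, 95% interval -0.39 to 0.0026). IL1B library 3 was above vehicle library 3, and the other IL1B values were below all vehicle values. Annotated genes on the opposite strand cover part of the exonic bases of 4 of the 10 genes: 14.1% of St3gal4 (4930581F22Rik), 7.9% of St8sia3 (St8sia3os), 4.1% of St6gal1 (BC106179) and 1.8% of St6galnac5 (Pigk). Without a stated strand setting the reads of those stretches cannot be told apart.

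St8sia4, which elongates polysialic acid on NCAM, lies on chromosome 1 (95587682 to 95667571). It had 68, 49, 53 and 56 counts in the vehicle libraries and 45, 27 and 34 in the IL1B libraries, or 8.95, 7.67, 9.34 and 10.4 CPM against 6.56, 4.49 and 5.74. Every IL1B library was below every vehicle library. The mean went from 9.09 ± 1.13 (SD, n = 4) to 5.59 ± 1.04 CPM (n = 3), the largest fall among the 10, with a log2 fold change of -0.68 (SE 0.18). Past the edgeR threshold over all 7 libraries, it was not past it without vehicle library 4 (log2 fold change -0.62) or IL1B library 2 (-0.55). In each of those settings 1 member was, St6galnac5.

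**Figure D2:**
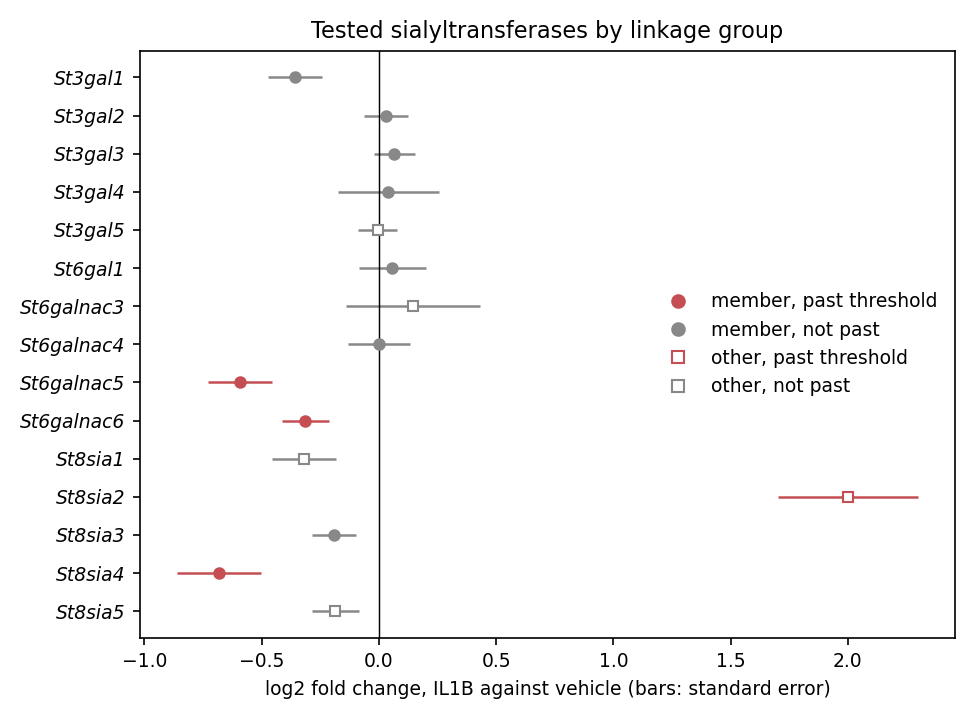
Log2 fold change of IL1B against vehicle, with its standard error, for the 15 tested sialyltransferases in order of linkage group. Circles are the 10 genes of the set and open squares the other 5; red marks those past the edgeR threshold. St8sia2, at 2.0, stands apart from the other 14, which lie between -0.68 and 0.15.

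The other 10 sialyltransferases of the family were in the table as well, and 5 of them passed the low-count filter. St8sia2, which starts and extends polysialic acid and is on chromosome 7 (73939119 to 74013690), had 11, 7, 5 and 4 counts in vehicle and 27, 30 and 25 with IL1B. Every IL1B library held more than 2 times the count of the highest vehicle library. Its mean went from 1.04 ± 0.307 to 4.38 ± 0.545 CPM, or by 2.0 on the log2 scale (SE 0.30, adjusted p = 7.15e-05 by edgeR). The adjusted p ran from 5.31e-08 to 0.000997 over 15 alternative settings. St8sia2 reached the filter level in 0 of 4 vehicle and 3 of 3 IL1B libraries, so it could not have been called lower. Its p-values are therefore given as a description.

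The remaining 4 tested genes did not pass. St8sia1, the GD3 synthase, had a mean of 14.4 ± 2.10 CPM in vehicle and 11.5 ± 0.434 with IL1B (log2 fold change -0.32, edgeR adjusted p = 0.163). St8sia5, which makes gangliosides with longer sialic acid chains, had a log2 fold change of -0.19 (adjusted p = 0.286 by edgeR), and the GM3 synthase St3gal5 one of -0.0055 (adjusted p = 0.982 by edgeR). St6galnac3 had 12 to 33 counts per library and a log2 fold change of 0.15 (edgeR adjusted p = 0.824). Of the 5 genes below the filter, St3gal6 had 42 vehicle and 23 IL1B counts, St6gal2 15 and 9, St6galnac2 6 and 9, St6galnac1 0 and 1, and St8sia6 had 0 counts in every library. A count of 0 allows up to 3 counts in a library, or 0.395 to 0.557 CPM, and covers counting error only.

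The polysialic acid synthases were also set against each other within each library. St8sia2 had 0.162, 0.143, 0.0943 and 0.0714 counts per St8sia4 count in vehicle and 0.600, 1.11 and 0.735 with IL1B. The groups did not overlap in this ratio, and could not have, since neither gene's counts overlapped and they differed in opposite directions. The ratio therefore adds nothing to the values of the genes taken singly. It compares counts of transcripts of 5368 and 10027 bases and not molecules. The ratio was not tested, because St8sia4 was chosen with this contrast in view and St8sia2 passed the filter through its IL1B libraries alone. Ncam1, which encodes the main carrier of polysialic acid, stood at 186 ± 13.7 CPM in vehicle and 175 ± 10.4 with IL1B (edgeR adjusted p = 0.463). The carrier Nrp2, which encodes neuropilin-2, was higher in all 3 IL1B libraries than in any vehicle library and did not pass (log2 fold change 0.44 with SE 0.17, adjusted p = 0.109 by edgeR), and Cadm1 did not pass either (-0.10, adjusted p = 0.374). None of the 3 carriers passed by edgeR, DESeq2 or limma-voom, and 1, Nrp2, had an unadjusted edgeR p under 0.05, as did 2824 of 12480 tested genes.

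**Figure D3:**
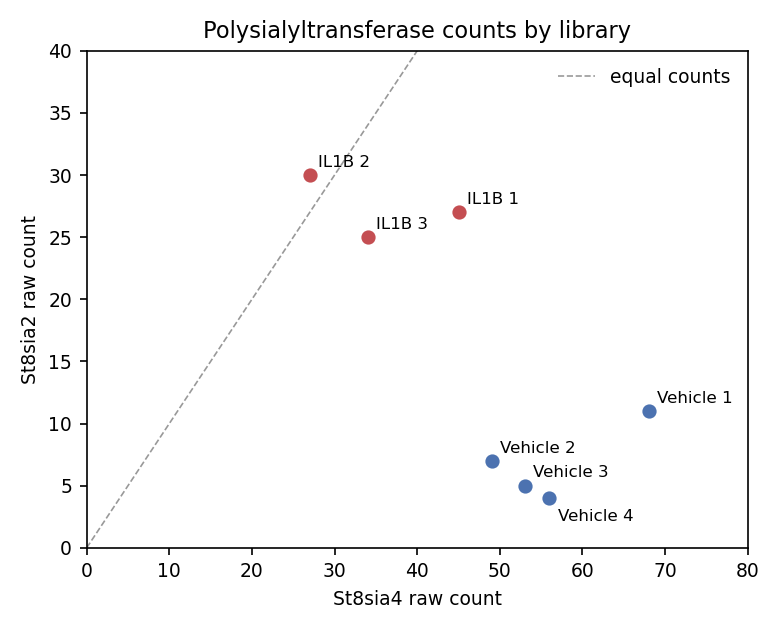
Raw counts of St8sia2 (vertical) against St8sia4 (horizontal) in each of the 7 libraries, vehicle in blue and IL1B in red; the dashed line marks equal counts. Vehicle libraries sit at 4 to 11 St8sia2 counts and 49 to 68 St8sia4 counts, and IL1B libraries at 25 to 30 and 27 to 45.

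The enzymes that supply and receive sialic acid were followed in 8 lists of 68 genes, of which 49 passed the filter. The lists were drawn up by function, but with earlier results of these data known. In these lists 5 genes rose and 5 fell by edgeR, 10.2% each way, beside 7.76% and 3.25% of all tested genes. Of the 5 that rose, Gcnt4 and Sele passed the filter through their IL1B libraries alone and could not have been called lower. For both reasons nothing is read from either share. The p-values of listed genes below carry the same limits. An unadjusted edgeR p under 0.05 was found for 15 of the 49, beside 2824 of 12480 tested genes. Nothing is read from counts at that level in single lists. The median log2 fold change of the 49 was -0.06.

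Of 7 genes of sialic acid synthesis and transport 2 fell and none rose by edgeR, DESeq2 or limma-voom, and none was higher at an unadjusted edgeR p under 0.05. Gne encodes the enzyme of the first steps from UDP-N-acetylglucosamine. It had 35.3, 33.2, 34.6 and 40.7 CPM in vehicle and 25.9, 25.1 and 27.3 with IL1B, without overlap (log2 fold change -0.46 with SE 0.09, adjusted p = 0.0023 by edgeR). Nanp, the phosphatase that releases free sialic acid, had 32.6, 34.6, 31.9 and 35.1 CPM in vehicle and 24.8, 23.6 and 25.5 with IL1B (log2 fold change -0.45 with SE 0.09, adjusted p = 0.0017 by edgeR). Both passed in all 15 alternative settings, with adjusted p of 0.000164 to 0.0116 for Gne and 0.000376 to 0.0083 for Nanp. The longest Nanp transcript shares 57.6% of its bases at 95% identity or more with transcripts of other genes, so its counts are uncertain. Among these genes are Gm6741 and its neighbour Ninl, whose exons cover 9.8% of the exonic bases of Nanp on the same strand. Nans shares 52.1% with Trim14, and Ctsa (22.1%), Selp (18.3%) and Gcnt4 (10.5%), named below, share less. These genes overlap others on the opposite strand, so their counts are uncertain without a stated strand setting. The steps between and after them, Nans, Cmas and the Golgi transporter gene Slc35a1, did not pass (log2 fold changes -0.06, -0.03 and -0.03).

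None of 5 tested genes of sialic acid removal and modification passed by edgeR, DESeq2 or limma-voom, and 1, Ctsa, had an unadjusted edgeR p under 0.05. The lysosomal sialidase gene Neu1 stood at 129 ± 8.75 and 131 ± 8.23 CPM. Ctsa, which encodes the protein that protects Neu1, had a log2 fold change of -0.19 (edgeR adjusted p = 0.101), and Casd1, which encodes a sialic acid O-acetyltransferase, one of -0.13 (edgeR adjusted p = 0.405). Neu2, Neu4, Npl and Cmah stayed below the filter.

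Of 12 genes of O-glycan core enzymes 2 rose and 1 fell. Galnt4, which starts O-glycans, rose from 5.96 ± 1.24 to 12.4 ± 1.52 CPM (log2 fold change 1.05 with SE 0.17, adjusted p = 0.0002 by edgeR), and 8.3% of its longest transcript matches transcripts of Poc1b at 95% identity or more. Among the core 2 branching genes, Gcnt1 fell from 16.9 ± 0.270 to 12.4 ± 0.929 CPM (log2 fold change -0.45, edgeR adjusted p = 0.0134). Gcnt4 rose from 23 counts over 4 vehicle libraries to 58 over 3 IL1B libraries (log2 fold change 1.72 with SE 0.37, adjusted p = 0.0033 by edgeR). It reached the filter level in 0 of 4 vehicle and 3 of 3 IL1B libraries, so it could not have been called lower. Gcnt3 overlapped between the groups and did not pass (0.80, adjusted p = 0.199 by edgeR). Gcnt1 lost its call with DESeq2, without IL1B library 2 and when the second libraries of both groups were left out (adjusted p up to 0.0722 over the alternatives).

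Of 11 genes of N-glycan enzymes 1 rose and 2 fell. Mgat4a, whose product adds a branch that keeps the glucose transporter GLUT2 at the beta-cell surface, rose from 12.0 ± 2.18 to 19.0 ± 0.503 CPM (log2 fold change 0.64 with SE 0.13, adjusted p = 0.0021 by edgeR). Mgat3, which adds the bisecting residue, fell from 24.6 ± 0.528 to 17.1 ± 2.68 CPM (log2 fold change -0.53 with SE 0.11, adjusted p = 0.0030 by edgeR). Mgat2, which starts an antenna, fell by 0.23 on the log2 scale (edgeR adjusted p = 0.0274), a call lost without vehicle library 4, IL1B library 1 or IL1B library 3 (adjusted p up to 0.127). Of 4 tested ganglioside core enzymes none passed by edgeR, DESeq2 or limma-voom, and 0 had an unadjusted p under 0.05 in edgeR. The lowest adjusted p among them were those of B4galt5 (log2 fold change -0.12, edgeR adjusted p = 0.555) and B3galt4 (-0.15, 0.645).

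Among 5 tested genes of Lewis antigen synthesis 1 rose, and none fell by edgeR, DESeq2 or limma-voom, with 0 lower at an unadjusted p under 0.05 in edgeR. The gene that rose was Chst2, a sulfotransferase that modifies sialylated selectin ligands. It had 3.95, 4.07, 4.41 and 4.08 CPM in vehicle and 7.72, 11.8 and 9.45 with IL1B (log2 fold change 1.22 with SE 0.19, adjusted p = 0.00011 by edgeR). Chst1 had a log2 fold change of -0.27 (edgeR adjusted p = 0.589). Of 12 sialic acid binding lectins 10 stayed below the filter, all 9 Siglec-type genes among them. Sele, which encodes the selectin that binds sialyl Lewis x, had 1 count in all vehicle libraries together and 191 in those with IL1B. Scaled for depth this is 254 times more (95% counting interval 45.1 to 10096). Selp did not pass (log2 fold change -0.24, edgeR adjusted p = 0.640).

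**Figure D4:**
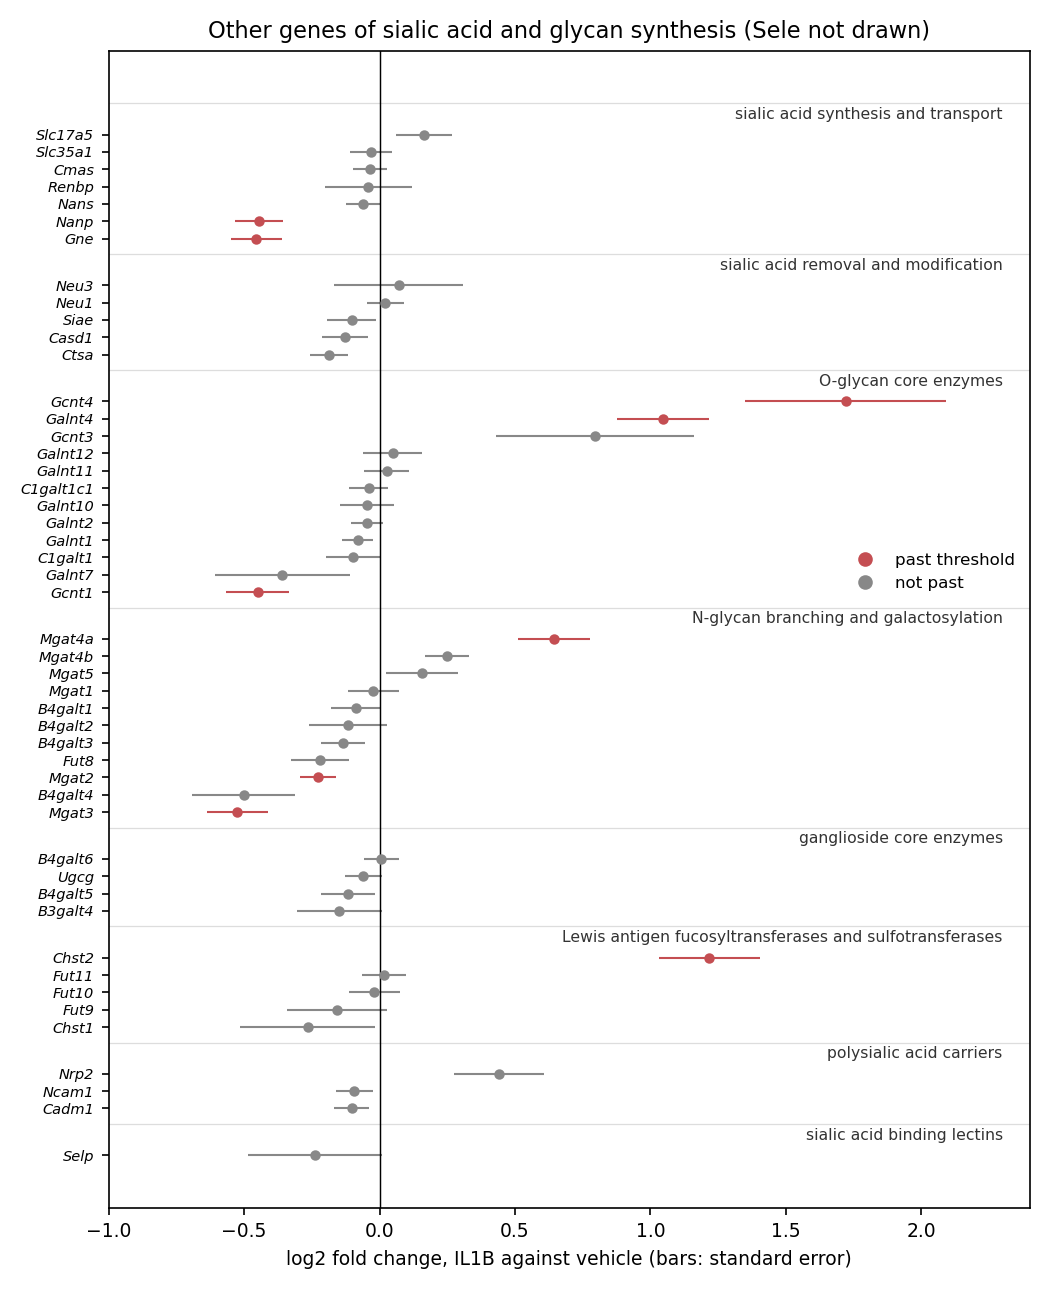
Log2 fold change of IL1B against vehicle, with its standard error, for 48 tested genes of sialic acid and glycan synthesis, grouped by list; red marks genes past the edgeR threshold, and Sele is left out because it lies far to the right. Gne and Nanp are the lowest of the synthesis list, and Gcnt4, Chst2 and Galnt4 have the largest increases drawn.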

How the data were processed

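Polyadenylated RNA of 7 libraries was sequenced from NEBNext Ultra II preparations, per the labels' protocols. Raw counts by gene symbol were deposited as 1 table. Per the submitters' processing notes, the build was mm10, and STAR, RSEM, DESeq2, HOMER and R 4.1.0 are among the tools named, without roles. Annotation, strand setting and handling of multiply matching reads were not given in the sources used here. Vehicle columns match titles 1 to 4. IL1B columns are numbered 1, 2 and 3 and the titles 1, 3 and 4, so these columns were assigned to the group only, under the table's numbers.

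The deposited counts went into edgeR 4.0.16 under R 4.3.3, with TMM scaling, filterByExpr (about 10 counts, 1.64 CPM, in at least 3 libraries), and a quasi-likelihood F test between IL1B and vehicle without covariates, adjusted by Benjamini-Hochberg over 12480 genes. A standard error is the size of the log2 fold change divided by the root of F. DESeq2 1.42.0 and limma-voom (limma 3.58.1) were alternatives. No pair of libraries agreed within sampling noise. The test was checked on simulated counts. Gene models were GENCODE M21, shared sequence was found with blastn 2.17.0, and promoters were RefSeq GRCm38.p6. The 10 members and all lists were chosen with earlier results of these data known. Genes were named by a rule: all 20 sialyltransferases, every listed pathway gene past the threshold, the 2 genes of each pathway list with the smallest adjusted p, and Nfkbia and Ins2. Nans, Cmas, Slc35a1, Neu1, Gcnt3, Ncam1, the marker genes and the genes listed as below the filter were named outside it, after their values were seen.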

Additional observations from a re-analysis of the deposited data

Results flagged for a closer look

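In the vehicle group, 31 sets of 4 values were examined with Dixon's test, and 2 held a library far from the other 3, where chance gives about 1 in 20. Vehicle library 3 was high for St6galnac5, at 18.7 CPM against 14.5 to 15.2 in the others. Vehicle library 2 was the only vehicle library with a count of Sele, at 0.157 CPM against 0 in the others, which is 1 count.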

How the results depend on the processing

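No paired analysis was possible because the IL1B columns carry the table's own numbers, which do not match the titles. The count of members past the threshold as lower, given as a description, was 3 over all 7 libraries and ran from 1 to 4 when 1 library was left out, and was lowest without vehicle library 4 or IL1B library 2. It was 4 with upper-quartile or total-count scaling and 2 with DESeq2 or limma-voom, and no setting called a member higher. Over all tested genes the count that fell was 406, ran from 252 to 589 when 1 library was left out, and was 676 when the second libraries of both groups were left out. Pathway genes numbered 5 to 6 higher and 4 to 6 lower over all settings. The summed vehicle level of the 10 members, 47.7 CPM per kilobase of the longest transcript, was 155 with the median transcript length, so order and shares between genes depend on the length used. Among the tested family genes and called pathway genes, no called change reversed its sign. St3gal4, St6galnac3 and other genes under 40 counts per library have wide intervals at this depth.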

Other observations

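Shares of the family's summed level per kilobase were compared by linkage group, with no test. The ST3 group made up 56.9% to 59.8% in vehicle and 60.0% to 62.4% with IL1B. With the median transcript length it made up 52.8% to 56.3% and 56.4% to 57.8%, ranges that nearly touch. The ST6 group made up 25.4% to 27.6% in vehicle and 23.0% to 24.95% with IL1B, but with the median transcript length its ranges overlapped (13.6% to 15.8% and 13.6% to 14.9%). The ST8 group overlapped under both lengths, at 14.8% to 16.5% and 14.6% to 15.5% with the longest transcript. The shares depend on each other: the summed ST3 level was 43.7 ± 0.941 CPM per kilobase in vehicle (SD, n = 4) and 43.5 ± 1.60 with IL1B (n = 3), while the summed ST6 level was 19.9 ± 1.02 and 16.9 ± 0.434.

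The 250 bases before annotated starts were searched on both strands for 4 motifs: the NF-kB consensus, the E-box CACGTG, the cAMP response element TGACGTCA and the AP-1 site TGANTCA. No match in the family overlapped another. RefSeq (GRCm38.p6) held 8 such windows for 6 of the 10 members, and none for St3gal1, St3gal2, St6galnac5 and St8sia3. None of the 8 windows held the NF-kB consensus, the E-box or the cAMP element, which occur in 7.25%, 6.02% and 1.55% of 32851 windows of all genes. So few windows cannot show whether matches are rarer than in all genes. Outside the 10, a St3gal6 window held the NF-kB consensus and the St6galnac3 window an E-box. The window of the most downstream St6gal1 start held an AP-1 site, as did 6.75% of all windows. Distal regions were not analysed here.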
